A study of Rattus norvegicus with 18 samples.

Results

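The comparison described here set liver RNA of obese rats fed a medium dose of plantain against liver RNA of obese rats given orlistat, with 3 libraries in each group. Members were the genes with at least 1 FPKM (fragments per kilobase of gene, scaled to library size) in at least 3 of the 18 libraries of the study, which gave 11945 genes of the 33657 in the table. The threshold left 214 genes with exactly 3 such libraries just inside and 281 genes with exactly 2 just outside. Of the members, 1 passed through the medium-dose libraries alone and 2 through the orlistat libraries alone, so these 3 genes had to differ.

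Liver of male rats labelled 18 weeks old was sequenced in 6 groups of 3. All rats of both groups compared here carried the label obesity, as did the untreated obese control (given water), the low dose and the high dose of plantain; the normal control was labelled healthy and was given water. The labels call orlistat the positive control. They give no strain, no obesogenic diet, no amount of plantain or orlistat, no plant species or preparation, no hour of collection and no feeding state, and do not tell whether each library is a different animal. P-values therefore rest on the spread between libraries, part of which may be technical.

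Orlistat blocks lipases in the gut lumen, so that part of the dietary fat is not absorbed, and it is used against obesity. The liver answers to the fat, sugar and hormones that reach it: insulin and the sterol-regulated SREBP factors drive the making of fatty acids and cholesterol, fasting signals and PPARalpha drive fatty acid oxidation and glucose production, and bile acids made from cholesterol return to the liver and restrain their own synthesis. The liver also keeps a daily clock, clears drugs with cytochrome P450 enzymes, and houses Kupffer cells, its resident macrophages.

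The 3 medium-dose libraries held 19.1 to 21.9 M (mega, 1e6) recovered reads, the 3 orlistat libraries 17.4 to 20.3 M, and all 18 libraries 16.6 to 26.2 M. Albumin, the defining product of hepatocytes, took 11.7% ± 0.30 of the reads at the medium dose and 10.8% ± 0.38 with orlistat, and mitochondrially encoded transcripts took 6.52% ± 0.37 and 5.73% ± 0.23 (mean ± SD, n = 3). All 15 hepatocyte markers were measured in every library, so the label liver held. Medium-dose replicate 1 stood somewhat apart, with a chi-square per degree of freedom of 6.87 and 6.33 against its 2 fellow libraries where other pairs within a group gave 3.15 to 5.27. Without it 1464 genes were higher and 1471 lower, of 1647 and 1562 with it.

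Of the 11945 genes, 3209 (26.9%) passed an adjusted p of 0.05 in limma on log2(FPKM + 1), a moderated linear model fitted over all genes. At the medium dose 1647 genes (13.8%) were higher and 1562 (13.1%) lower than with orlistat. Rescaling to TPM, in which every library sums to the same total, moved this split to 959 higher and 2617 lower and shifted the median of all genes from 0.00 to -0.06, so the balance of directions depends on the scale. Most differences were small: the median size among genes past the threshold was 0.24 on the log2 scale, and only 40 higher and 23 lower genes reached a log2 difference of 1. The median standard error was 0.07. Values of the 3 libraries against 3 did not overlap for 4569 genes (38.3%), and 129 genes past the threshold had overlapping values. With 3 against 3, the smallest p that an exact two-sided permutation of 1 gene's values can reach is 0.1. Genes called higher or lower below passed the limma threshold. For other genes values are given without such a word. The genes with the largest differences were picked among called genes without overlap, so for them the lack of overlap describes the pick and adds no support.

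**Figure D1:**
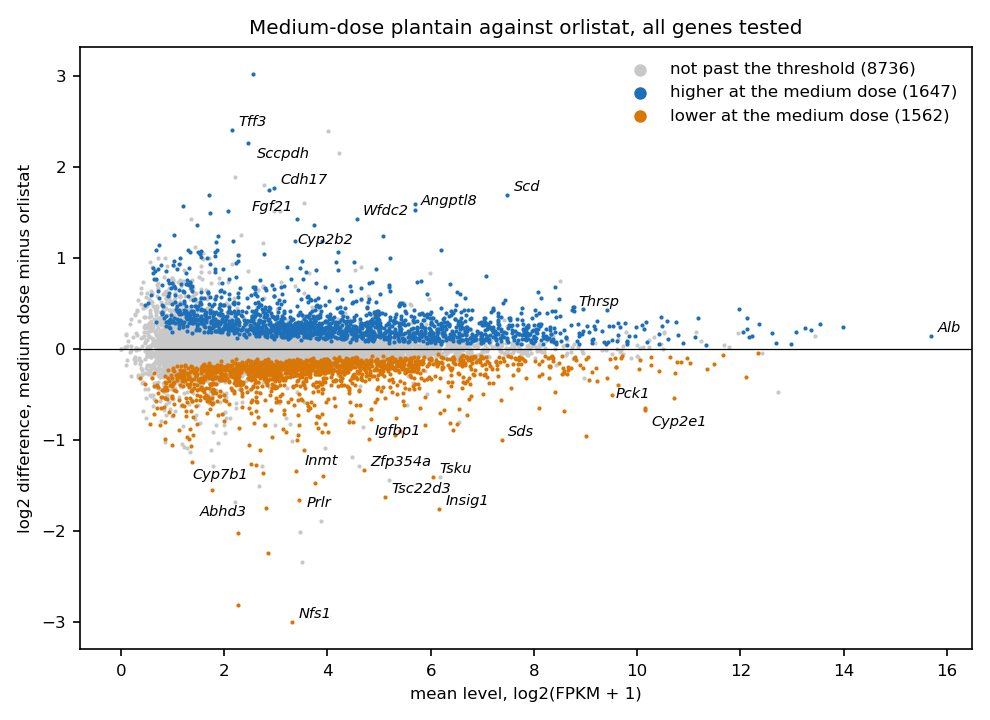
Each point is 1 of the 11945 genes, with the mean level of the 2 groups on the horizontal axis, as log2(FPKM + 1), and the log2 difference, medium dose minus orlistat, on the vertical axis. Blue points are the 1647 genes higher and orange points the 1562 genes lower at the medium dose; most lie within 1 log2 unit of the line at 0, while Scd, Angptl8 and Tff3 stand above it and Nfs1 and Insig1 below it.

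The genes with the largest rises over orlistat included secreted or membrane proteins and a fatty acid desaturase. Scd, which encodes the stearoyl-CoA desaturase that makes monounsaturated fatty acids, had 273, 269 and 275 FPKM at the medium dose and 84.2, 81.8 and 84.5 with orlistat. The 3 medium-dose libraries were all more than 3 times the highest orlistat library. The log2 difference was 1.69 ± 0.02 (± SE, limma adjusted p = 4.09e-17), and the means of the obese control, low dose and high dose were 244, 109 and 170.4 FPKM, so that the medium dose lay nearest to the untreated obese liver and orlistat lowest of all groups. Angptl8, a secreted protein that restrains lipoprotein lipase and is known to rise with feeding, had 74.4, 75.8 and 76.7 FPKM against 23.9, 25.1 and 27.4. These groups did not overlap, with a log2 difference of 1.53 ± 0.06 (adjusted p = 1.72e-11), and the obese control mean was 60.6 FPKM. Fgf21, a liver hormone of nutrient stress, had 14.5, 13.1 and 15.9 FPKM against 4.67, 5.28 and 4.3, again without overlap. Its log2 difference from orlistat was 1.43 ± 0.11, but its level was higher still at the low dose (28.9 FPKM), which the medium dose undercut by 0.95 on the log2 scale (adjusted p = 6.87e-06).

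Tff3 (trefoil factor 3, a small secreted peptide of mucous epithelia) had 5.83, 7.52 and 6.07 FPKM at the medium dose and 0.204, 0.606 and 0.409 with orlistat. The orlistat values rest on 2, 5 and 4 reads and the medium-dose values on 56, 68 and 63, so the log2 difference of 2.41 ± 0.18 (adjusted p = 5.98e-08) rests on few reads. Orlistat had the lowest mean of the 6 groups: the obese control (6.5 FPKM) and the low dose (6.17 FPKM) lay near the medium dose, and the normal control (1.86 FPKM) and the high dose (1.87 FPKM) lay between. Cdh17, a cadherin of liver and gut epithelium, had 10.6, 11.4 and 11 FPKM against 2.58, 2.51 and 2.48, a log2 difference of 1.77 ± 0.05 (adjusted p = 9.03e-13). Here the medium dose was the group that stood high: the other 4 group means ran from 1.22 FPKM in the obese control to 4.95 FPKM in the normal control, and the medium dose was also higher than the high dose (log2 1.11) and the low dose (log2 1.53). Wfdc2, a secreted epithelial protein, differed by 1.43 ± 0.06, from 11.8 to 33.4 FPKM. In bulk tissue, fewer cells of a type and less RNA per cell cannot be told apart. Of 8 bile duct markers in the table, Krt19, Krt7, Sox9, Cftr and Cldn4 were below 1 FPKM in all 6 libraries. Of the 2 markers tested, 1 was higher, and the other, Epcam, was at 7.1 against 7.88 FPKM and did not pass. The summed level was 16.11 to 18.65 FPKM at the medium dose and 15.77 to 16.21 with orlistat. The part of bile duct cells in the result was not tested.

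Other genes high on the list were Cyp2b2, a drug-inducible P450 (6.47 to 18.3 FPKM, log2 1.37 ± 0.05), and 2 calls of low stability. Sccpdh, a dehydrogenase-like gene, had 7.99, 5.7 and 10.9 FPKM against 0.986, 0.901 and 0.709, and its log2 difference of 2.27 ± 0.77 had an adjusted p of 0.0401; its 3 low-dose libraries alone ran from 0.823 to 9.58 FPKM. It lost the call without any 1 of the 6 libraries, with an adjusted p of 0.058 to 0.112. Exoc7, an exocyst subunit, had 2.52, 3.71 and 1.18 FPKM against 0.0907, 0.135 and 0.113 and lost its call when medium-dose replicate 1 or 2 or orlistat replicate 1 or 3 was left out (adjusted p = 0.0503 to 0.0838). The ranks of the 10 largest differences left out 6 placeholder genes among the higher and 4 among the lower, and 1 small RNA family name in each direction, carried by several loci, is not described.

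The genes that fell furthest below orlistat included a sterol sensor, a hormone receptor and bile acid and tryptamine enzymes. Insig1, which encodes the endoplasmic reticulum protein that holds back SREBP when sterols are plentiful, had 31.2, 30.2 and 33.8 FPKM at the medium dose and 111, 108 and 109.7 with orlistat. The orlistat libraries were all more than 3 times the highest medium-dose library, the log2 difference was -1.76 ± 0.03 (adjusted p = 2.09e-14), and the medium dose was the lowest of the 6 groups. Abhd3, a phospholipid-cleaving hydrolase, had 2.29, 2.14 and 2.29 FPKM against 9.15, 10.2 and 10.1. Its log2 difference was -1.74 ± 0.07, and the medium dose was also lower than the high dose (log2 -1.49) and the low dose (log2 -1.37). Tsku, a protein secreted by the liver, had 34.4, 34.8 and 36.7 FPKM against 96.4, 94.6 and 94.5, a log2 difference of -1.41 ± 0.03 without overlap. The high-dose mean of Tsku was 88.4 FPKM, and the medium dose was below it by 1.30 on the log2 scale.

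Tsc22d3, known as a glucocorticoid-induced gene, had 16.3, 16.5 and 14.8 FPKM against 51.4, 52.7 and 49.1, a log2 difference of -1.63 ± 0.06 with no overlap. Orlistat was the highest of the 6 groups for this gene and the medium dose the lowest. Inmt, which methylates tryptamine-like amines, differed by -1.34 ± 0.10 (4.92 against 14.1 FPKM), and the zinc finger gene Zfp354a by -1.33 ± 0.05 (13.8 against 36.1 FPKM). Nfs1, the cysteine desulfurase of iron-sulfur cluster assembly, had 1.61, 1.08 and 1 FPKM against 18.4, 15.5 and 16.1 at the locus ENSRNOG00000019736, a log2 difference of -2.99 ± 0.58 (adjusted p = 0.00114). The symbol belongs to 2 loci in the table. The other, ENSRNOG00000045686, had 0.216, 0.255 and 0.2 FPKM at the medium dose and 0.259, 13.4 and 0.448 with orlistat (log2 difference -1.28 ± 1.30, adjusted p = 0.513), and reads of near-identical copies could be split between them, so the size of the difference is uncertain. The high dose had 1.09 FPKM at the first locus, close to the medium dose, and the low dose 17.5 FPKM, close to orlistat. That locus varied widely within groups, from 0.851 to 16.4 FPKM in the normal control and from 11.4 to 33.2 FPKM in the obese control.

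By amount of transcript, the largest differences lay in plasma protein and metabolic genes with small folds. Ttr, which carries thyroid hormone and retinol-binding protein, was higher (10854 to 13127 FPKM, log2 0.27 ± 0.03), as were the iron carrier Tf (9825 to 11362 FPKM, log2 0.21 ± 0.02), Alb (0.15 ± 0.04), Apoe (0.24 ± 0.03) and COX1 (0.25 ± 0.04). Under quantile normalization, which gives every library the same distribution, Alb, Ttr, Apoe and COX1 were at 0.00, 0.03, -0.00 and -0.00 and lost their calls. Alb also did not pass without the filter or with the 6 libraries alone (adjusted p = 0.0689 and 0.0554). Lower were the selenium carrier Selenop (4885 to 3956 FPKM, log2 -0.30 ± 0.02), Cyp2c7 (1996 to 1377 FPKM, -0.53 ± 0.02), the ethanol-oxidizing Cyp2e1 (1393 to 880.5 FPKM, -0.66 ± 0.02), Pck1 and complement C3 (-0.22 ± 0.02).

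Gene lists of liver pathways and cell types were read by how many tested members passed the threshold in each direction, against 13.8% higher and 13.1% lower over all genes. Lists of fatty acid and triglyceride synthesis, fatty acid oxidation, lipoproteins and lipid droplets, oxidative phosphorylation and ribosomal proteins had more members higher than lower, and lists of amino acid breakdown, acute phase proteins, heat shock and macrophage markers had more lower.

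**Figure D2:**
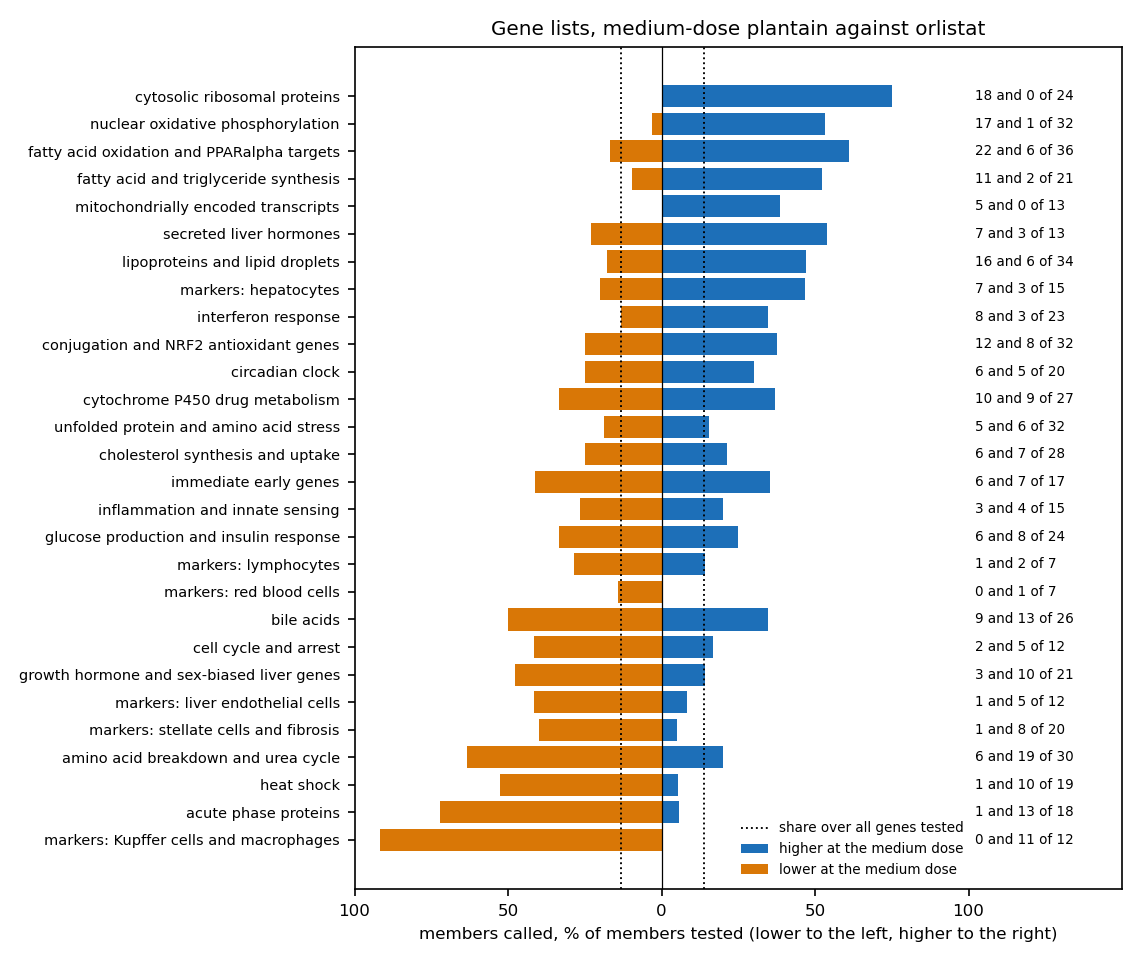
Bars give the share of tested members of each gene list, in percent, that were higher (blue, to the right) or lower (orange, to the left) at the medium dose than with orlistat, with both counts and the number tested at the right. Dotted lines mark the shares over all genes tested, 13.8% higher and 13.1% lower; ribosomal proteins (18 higher, 0 lower of 24) and Kupffer cell and macrophage markers (0 and 11 of 12) lie at the ends.

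Genes that make fatty acids and triglycerides rose for 11 of 21 tested members and fell for 2, with a median log2 difference of 0.14. Beside Scd, the malic enzyme Me1, which supplies NADPH, rose from 4.35 to 7.55 FPKM (log2 0.67 ± 0.06), the desaturases Fads2 (0.45 ± 0.02) and Fads1 (0.35 ± 0.03) rose, and so did the final triglyceride enzyme Dgat2 (0.37 ± 0.02) and the elongase Elovl5 (0.35 ± 0.02). Fatty acid synthase itself, Fasn, rose by less (0.26 ± 0.05). Among the regulators, Thrsp (Spot 14, a lipogenic factor) had 487, 491 and 492 FPKM at the medium dose and 358, 365 and 365 with orlistat. These groups did not overlap (log2 0.43 ± 0.01), and the low dose (316 FPKM) lay below orlistat. Srebf1, which encodes SREBP-1, rose by 0.26 ± 0.04. Against the trend, the phosphatidate phosphatase Lpin1 fell from 14.3 to 9.2 FPKM (log2 -0.58 ± 0.04) and Lpin2 by less (-0.16 ± 0.03). In the same fit 12 of the 21 were higher and 4 lower than at the high dose.

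Fatty acid oxidation genes and PPARalpha targets were higher too, with 22 of 36 up and 6 down but a small median of 0.11. These values depend on the scale. On the TPM scale 16 rose and 7 fell with a median of 0.03, and under quantile normalization 15 rose and 6 fell with a median of 0.04. Higher members were the peroxisomal acyltransferase Crot (54.4 to 72.7 FPKM, log2 0.41 ± 0.03), the omega-hydroxylase Cyp4a2 (0.46 ± 0.03) and Acot2 (0.51 ± 0.09), a mitochondrial thioesterase. The gate of mitochondrial oxidation went the other way: Cpt1a fell from 128 to 116 FPKM (log2 -0.14 ± 0.02). By role, 11 of 15 mitochondrial oxidation and ketone genes rose and 2 fell, and 5 of 10 peroxisomal and omega-oxidation genes rose and 3 fell. Of the 4 genes for the receptor and its coactivators 0 rose and 1 fell: Rxra was lower (-0.10 ± 0.03), a call lost without medium-dose replicate 1, orlistat replicate 1 or orlistat replicate 3 (adjusted p = 0.0703 to 0.106), and Ppara had 20.4 against 23.2 FPKM. Fgf21, described above, belongs to this list.

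Of 34 genes for lipoproteins and lipid droplets, 16 were higher and 6 lower, with a median of 0.12. On the TPM scale 12 were higher and 7 lower, and under quantile normalization 11 and 7, with a median of 0.06 in both. Of the 12 apolipoprotein and assembly genes 8 rose and 2 fell. Higher were Apom (277 to 373 FPKM, log2 0.43 ± 0.02), Apoa4 (0.42 ± 0.02), Apoc2 (0.36 ± 0.03), Apoa2 (0.34 ± 0.02), Apoc3 (0.28 ± 0.02) and Apoa1 (0.25 ± 0.02). Apob, the structural protein of very low density lipoprotein, was lower (406 to 352 FPKM, log2 -0.21 ± 0.02), as was the cholesterol exporter Abca1 (-0.27 ± 0.04). On the droplet side G0s2, an inhibitor of the main triglyceride lipase, was higher (185 to 245 FPKM, log2 0.40 ± 0.02), though over all 13 droplet genes 3 rose and 3 fell.

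Cholesterol genes were divided: of 28, 6 were higher and 7 lower, counts that became 2 and 11 on the TPM scale. Apart from Insig1, the sterol reductase Tm7sf2 fell from 34.2 to 21.3 FPKM (log2 -0.66 ± 0.04). By role, 4 of 20 synthesis enzymes rose and 5 fell, and 2 of 8 genes of sterol sensing and uptake rose and 2 fell.

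Of 13 bile acid synthesis enzymes 4 were higher and 6 lower by transcript, with Cyp7a1 and Cyp7b1 among the lower. Cyp7a1, the rate-limiting enzyme of the classic pathway, had 43.6, 39.5 and 42.7 FPKM at the medium dose and 66, 66.2 and 66.6 with orlistat. The orlistat libraries stood above the libraries of all other groups, the obese control mean being 19 FPKM, and the log2 difference was -0.65 ± 0.03 (adjusted p = 7.20e-10). Cyp7b1, the oxysterol hydroxylase of the alternative pathway, had 2.91, 2.96 and 2.44 FPKM against 8.66, 8.26 and 9, a log2 difference of -1.36 ± 0.09; orlistat was again the highest group. Akr1d1, a later step, fell by less (-0.35 ± 0.02). Nr0b2, which encodes the repressor SHP that bile acids induce, was also lower (49.6 to 28.8 FPKM, log2 -0.76 ± 0.06), while the bile acid receptor gene Nr1h4 was higher (0.38 ± 0.03). Among the transporters the uptake carriers Slco1a4 (0.46 ± 0.02) and Slc10a1 (0.21 ± 0.02) rose, and Slco1a1 (-0.51 ± 0.02) and the canalicular exporter Abcc2 (-0.46 ± 0.02) fell. Over the whole list 9 of 26 were higher and 13 lower; on the TPM scale 5 were higher.

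Genes of glucose production and insulin response had 6 of 24 members higher and 8 lower: 5 of 7 glucose use genes rose, and 4 of 8 insulin signalling and binding protein genes fell while 0 rose. Of 9 glucose production and glycogen genes 1 rose, 3 fell and 5 did not pass, with a median of -0.04. Pck1, the rate-limiting enzyme of gluconeogenesis, had 869.7, 887 and 883 FPKM at the medium dose and 1381, 1370 and 1385 with orlistat. The medium dose was the lowest of the 6 groups and did not overlap with any, and the log2 difference was -0.65 ± 0.02 (adjusted p = 1.09e-13). G6pc, the glucose-releasing phosphatase, had 50.6, 45.1 and 46.9 FPKM against 68.4, 68.4 and 68.9 (log2 -0.52 ± 0.03), with the high dose at 47.8 FPKM and the low dose above orlistat (82.6 FPKM). Igfbp1, a binding protein that insulin represses, had 18.6, 18.1 and 16.4 FPKM against 35.2, 35.2 and 37.6. Its log2 difference was -0.99 ± 0.04, and Foxo1, the factor that drives these genes when insulin is low, was lower as well (11.9 to 7.76 FPKM, -0.56 ± 0.05). Among genes of glucose use and glycogen, the glycolytic pyruvate kinase Pklr (0.56 ± 0.05) and the glycogen phosphorylase Pygl (0.39 ± 0.02) were higher.

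Genes of amino acid breakdown and the urea cycle were lower for 19 of 30 and higher for 6 (3 on the TPM scale), with a median of -0.20. Sds, the serine dehydratase, had 108, 111 and 109 FPKM at the medium dose and 224, 217 and 218 with orlistat (log2 -1.0 ± 0.02). Tat, tyrosine aminotransferase, had 358, 348 and 344 FPKM against 682, 679 and 676 (log2 -0.95 ± 0.02). Neither gene overlapped between the groups, but their places among the other groups differed: for Tat the medium dose was the lowest of all 6 groups, whereas for Sds the obese control (85.4 FPKM) and the low dose (80.2 FPKM) were lower still. The transaminases Gpt (88.3 to 53.8 FPKM, log2 -0.70 ± 0.04) and Got1 (-0.66 ± 0.03), the glutaminase Gls2 (-0.54 ± 0.03) and the urea cycle enzymes Ass1 (859 to 608 FPKM, -0.50 ± 0.02), Asl (-0.29 ± 0.02) and Cps1 (-0.20 ± 0.01) were lower too. Arg1, which releases urea, was higher (0.15 ± 0.02).

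**Figure D3:**
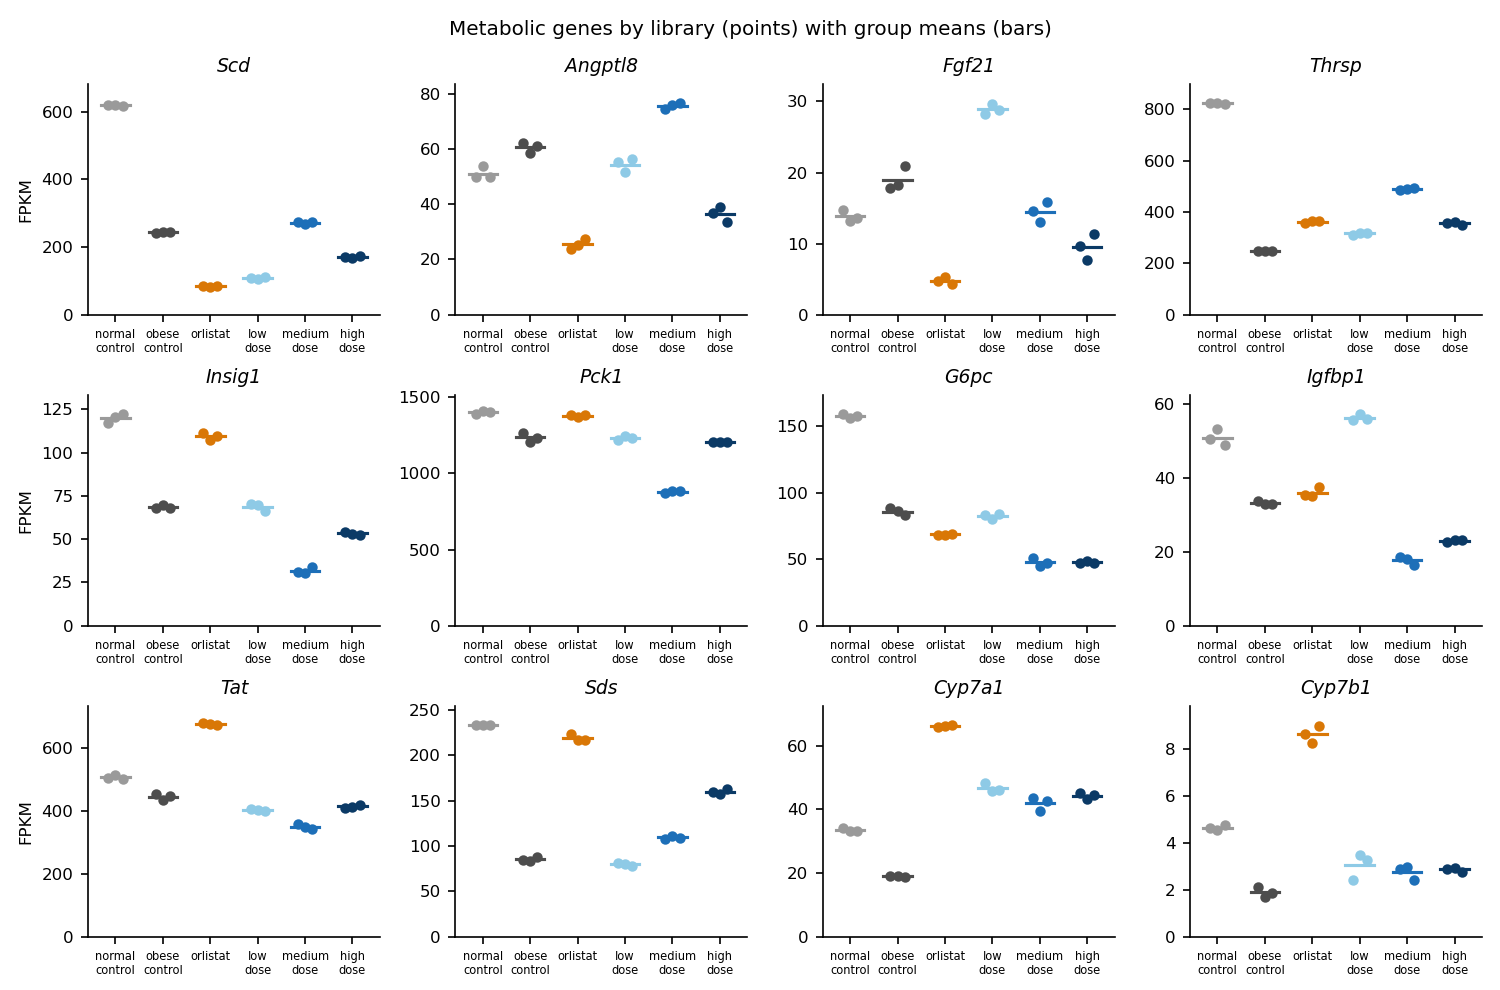
Points are the FPKM of single libraries and bars the group means (n = 3) of 12 metabolic genes in the 6 groups. Scd, Angptl8, Fgf21 and Thrsp are higher, and Insig1, Pck1, G6pc, Igfbp1, Tat, Sds, Cyp7a1 and Cyp7b1 lower, at the medium dose (middle blue) than with orlistat (orange), with no overlap in any panel.

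Drug-metabolizing P450 genes were split, with 10 of 27 higher and 9 lower (5 and 11 on the TPM scale). Cyp2b2 and Cyp3a23/3a1 (288 to 386 FPKM, log2 0.42 ± 0.05) were higher, as was Nr1i3 (16.2 to 25.8 FPKM, 0.64 ± 0.06), which encodes the receptor CAR that induces Cyp2b genes. Lower were Alas1 (129 to 78.1 FPKM, -0.72 ± 0.03), the first enzyme of heme synthesis, and the dioxin receptor gene Ahr (-0.41 ± 0.04). Members of the Cyp2 and Cyp3 families are close copies of each other, so reads may be split among them and their single values are uncertain.

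Of 32 conjugation and antioxidant genes 12 were higher and 8 lower, counts that became 8 and 12 on the TPM scale. The glutathione transferases Gsta5 (260.1 to 418 FPKM, log2 0.68 ± 0.05), Gsta2 (0.68 ± 0.12) and Gstt1 (0.49 ± 0.05) and the epoxide hydrolase Ephx1 (291 to 426 FPKM, 0.55 ± 0.01) rose. By role, 8 of 20 conjugation genes rose and 5 fell. Of 12 NRF2 antioxidant genes 4 rose and 3 fell, with a median of 0.04, so that group had no single direction. The classic NRF2 targets Nqo1 (26.1 to 14.6 FPKM, -0.80 ± 0.05) and Hmox1 (-0.43 ± 0.04) fell, although Nfe2l2, the NRF2 gene, rose (0.38 ± 0.03). Ugt2b37, a glucuronosyltransferase, fell from 332 to 212 FPKM (-0.64 ± 0.03). The Gsta and Ugt2b genes, too, have close copies.

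The list of growth hormone and sex-biased liver genes had 10 of 21 lower and 3 higher, with 6 of 7 sex-biased enzymes lower. Prlr, the prolactin receptor, had 4.78, 4.13 and 3.77 FPKM at the medium dose and 15.3, 16.5 and 14.6 with orlistat. The groups did not overlap and the log2 difference was -1.66 ± 0.06 (adjusted p = 3.20e-11). Its level split the doses: the high dose (3.23 FPKM) was near the medium dose, and the low dose (19.9 FPKM) was above orlistat. Srd5a1, a steroid 5-alpha-reductase that is female-biased in rat liver, fell from 116 to 65 FPKM (log2 -0.82 ± 0.02), Bcl6, a repressor tied to growth hormone signalling, from 13 to 6.86 FPKM (-0.83 ± 0.05) and Igf1 from 348 to 279 FPKM (-0.32 ± 0.02). Cish, which growth hormone induces through STAT5, rose from 2.33 to 3.69 FPKM (0.49 ± 0.05), both below the obese control (9.47 FPKM). Because the list holds genes that growth hormone raises and genes it lowers, its counts give no direction of hormone action.

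Clock genes moved in both directions, 6 of 20 higher and 5 lower (3 and 6 on the TPM scale). In the liver clock, BMAL1 (gene Arntl) and CLOCK activate genes through the E-box, letters CACGTG. Among those genes are the Per and Cry repressors and Nr1d1, whose product REV-ERBalpha in turn represses Arntl through the ROR element. Both motifs were searched on both strands in the 250 bases before the start of each clock gene in the RefSeq promoter table (build GRCr8), which holds 16 of the 20 genes, Arntl under its newer symbol Bmal1. The E-box was found for 4 genes and the ROR element, searched as ANTNGGTCA (N any base), for 1, where 5.59% and 2.05% of all 33469 windows of that length hold them. No window of these genes held both motifs. A match is a description of letters, not a binding site. The sequences of the 4 called genes with a match are shown. Letters are 5′ to 3′ on the gene's strand, with the match in capitals.
Arntl (Bmal1), chr1:176766078-176766327, plus strand, ROR element 18 bases before the start: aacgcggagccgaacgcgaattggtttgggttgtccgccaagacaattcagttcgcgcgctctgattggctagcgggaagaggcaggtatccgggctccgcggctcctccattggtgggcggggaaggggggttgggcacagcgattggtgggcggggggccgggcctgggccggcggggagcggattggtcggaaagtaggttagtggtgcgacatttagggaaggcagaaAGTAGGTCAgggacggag
Bhlhe40, chr4:143174200-143174449, plus strand, E-box 220 bases before the start: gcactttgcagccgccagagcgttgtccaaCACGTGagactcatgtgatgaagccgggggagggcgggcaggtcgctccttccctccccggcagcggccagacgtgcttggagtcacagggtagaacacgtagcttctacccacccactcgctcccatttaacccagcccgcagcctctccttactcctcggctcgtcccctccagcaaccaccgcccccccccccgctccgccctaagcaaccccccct
Tef, chr7:115206577-115206826, plus strand, E-box 198 bases before the start: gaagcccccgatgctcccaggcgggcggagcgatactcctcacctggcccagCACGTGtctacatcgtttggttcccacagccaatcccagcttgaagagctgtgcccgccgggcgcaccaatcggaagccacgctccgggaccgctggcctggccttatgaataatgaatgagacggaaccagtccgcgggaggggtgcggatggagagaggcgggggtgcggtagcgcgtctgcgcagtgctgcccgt
Nr1d1, chr10:84229628-84229657, minus strand, the 30 bases around the E-box 191 bases before the second of 2 listed starts: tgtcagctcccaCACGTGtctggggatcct

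Arntl, with the ROR element above, had 0.616, 0.912 and 0.826 FPKM at the medium dose and 2.43, 2.06 and 2.34 with orlistat, from 38, 53 and 55 and 153, 109 and 147 reads. The groups did not overlap (log2 -0.88 ± 0.08, adjusted p = 5.93e-07), and both lay below the obese control (6.05 FPKM). Nr1d1 showed the opposite order, with 21, 22.8 and 24.3 FPKM against 12.3, 10.4 and 10.9. Its log2 difference was 0.96 ± 0.06, and orlistat was the lowest of all 6 groups. Bhlhe40, a repressor with an E-box above, was higher (15.7 to 21.2 FPKM, log2 0.41 ± 0.04), and so were the output factors Dbp (83.8 to 113 FPKM, 0.43 ± 0.03) and Tef (0.11 ± 0.03), the first of which had no E-box in its window. Ciart, the fourth gene with an E-box, had 1.18 against 0.781 FPKM and did not pass. Within the Per and Cry repressors the directions were mixed: Per1 had 5.02, 5.4 and 5.17 FPKM against 10.8, 10.3 and 10.1 (log2 -0.88 ± 0.04) and Cry1 fell (-0.32 ± 0.09), while Cry2 (0.19 ± 0.05) and Per3 (0.14 ± 0.05) rose. Per3, Tef, Cry1 and Cry2 lost their calls without 1 or more of the single libraries (adjusted p = 0.0502 to 0.196). On the TPM scale Per3, Tef and Cry2 were at 0.08, 0.03 and 0.12 and did not pass. Per3 and Tef also did not pass with the 6 libraries alone. Tef lost its call under quantile normalization, and Per3 lost its call with pseudocount 0.1, without the filter and with the median-of-ratios scaling. Usp2, a deubiquitinase with a daily rhythm, fell from 16.7 to 9.62 FPKM (-0.74 ± 0.05). The labels do not give the hour of collection, and its part in the result was not tested.

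**Figure D4:**
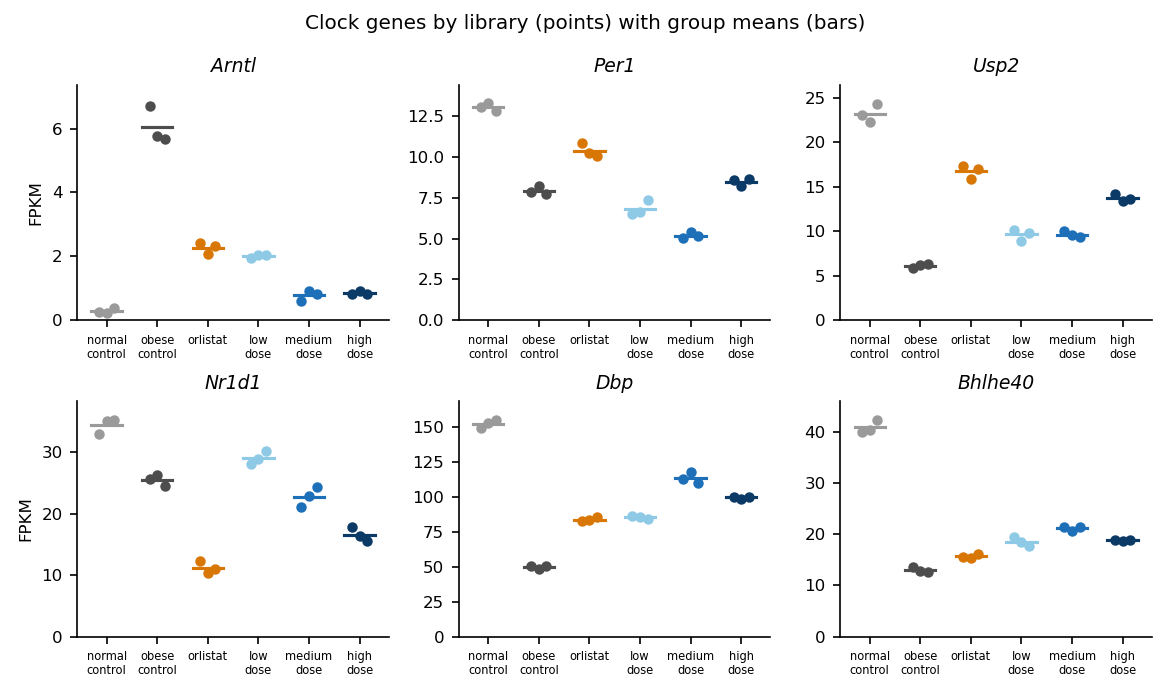
Points are the FPKM of single libraries and bars the group means (n = 3) for 6 clock genes. Arntl, Per1 and Usp2 (top row) are lower and Nr1d1, Dbp and Bhlhe40 (bottom row) higher at the medium dose than with orlistat; for Nr1d1 orlistat is the lowest group, with 11.2 FPKM on average.

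Of 13 secreted liver hormones 7 were higher and 3 lower; under quantile normalization 3 were higher. The inhibin subunits rose together, Inhba (2.69 to 4.26 FPKM, log2 0.51 ± 0.07), Inhbc (33.6 to 44.2 FPKM, 0.39 ± 0.03) and Inhbe (67.5 to 83.2 FPKM, 0.30 ± 0.02). The lower members were Tsku and Selenop, given above, and the growth factor Nrg4 (8.2 to 4.82 FPKM, -0.66 ± 0.11).

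Chaperone and stress genes were split by list. Among 19 heat shock genes 10 were lower and 1 higher: the constitutive chaperone Hspa8 fell from 157 to 121 FPKM (log2 -0.37 ± 0.04), the inducible Hspa1b from 2.44 to 0.79 FPKM (-0.95 ± 0.13), and Fkbp4 rose (0.18 ± 0.02). The Hspa1b values rest on few reads, 45, 26 and 52 at the medium dose and 110, 107 and 143 with orlistat. Of 32 unfolded protein and amino acid stress genes 5 were higher and 6 lower (3 and 11 on the TPM scale, 3 higher without medium-dose replicate 1). The other 21 did not pass and the median was 0.01. These counts lay near the shares over all genes (13.8% higher, 13.1% lower) and show no shift of the list. Among its members the main endoplasmic reticulum chaperone Hspa5 (221 to 188 FPKM, -0.23 ± 0.01), Dnajb9 (-0.44 ± 0.07) and Herpud1 (-0.37 ± 0.02) were lower and Xbp1 (0.20 ± 0.03) higher. In the list of cell cycle and arrest genes 5 of 12 were lower, all 5 among the 9 arrest and p53 target genes, and 2 higher; without orlistat replicate 1 or 3 the lower count was 3, and without medium-dose replicate 1 or orlistat replicate 2 the higher count was 1. The cell cycle inhibitor Cdkn1a fell from 10.9 to 5.38 FPKM (log2 -0.91 ± 0.09) and cyclin D1, Ccnd1, rose from 7.26 to 10.1 FPKM (0.42 ± 0.06).

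Acute phase proteins, which the liver secretes in inflammation, were lower for 13 of 18 genes and higher for 1, all by small steps (median -0.10). Crp fell from 1489 to 1265 FPKM (log2 -0.23 ± 0.02), the fibrinogen chains Fga (-0.15 ± 0.01), Fgb (-0.14 ± 0.02) and Fgg (-0.16 ± 0.03) fell together, and haptoglobin, Hp, was the single member called higher (0.05 ± 0.01), with a difference of -0.02 on the TPM scale and -0.13 under quantile normalization, neither of which passed. Under quantile normalization Fgb and Fgg did not pass either. In the same fit 13 of the 18 were lower than at the high dose and 17 lower than at the low dose. Of 15 genes of inflammation and innate sensing 3 were higher and 4 lower; 1 was higher on the TPM scale, with the 6 libraries alone, and without medium-dose replicate 2, orlistat replicate 2 or orlistat replicate 3. The chemokine Cxcl1 fell from 8.49 to 5.59 FPKM (-0.54 ± 0.10), and the adhesion molecules parted, Vcam1 falling from 3.06 to 1.58 FPKM (-0.65 ± 0.10) and Icam1 rising from 10.8 to 18 FPKM (0.69 ± 0.03). Interferon-induced genes had 8 of 23 higher and 3 lower (5 higher on the TPM scale), led by Ifi27 (365 to 506 FPKM, 0.47 ± 0.02) and Isg15 (0.47 ± 0.07), with Gbp2 lower (-0.38 ± 0.08). Macrophage markers, described below, were lower for 11 of 12 genes (summed level 282.7 to 293 FPKM at the medium dose, 353.3 to 373 with orlistat). Their part in the results of these lists was not tested.

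Nuclear genes for oxidative phosphorylation were higher for 17 of 32 and lower for 1, and cytosolic ribosomal protein genes for 18 of 24 and 0. Examples were Uqcrq of complex III (124 to 170.0 FPKM, log2 0.45 ± 0.05), Cox4i1 of complex IV (0.26 ± 0.02), Rps18 (65.7 to 83.2 FPKM, 0.34 ± 0.03) and Rpl4 (0.27 ± 0.02). These counts depend on the scale: on the TPM scale they were 8 and 10, and under quantile normalization 11 of the oxidative phosphorylation genes were higher; the lower count of oxidative phosphorylation genes was 0 without medium-dose replicate 2, medium-dose replicate 3 or orlistat replicate 2. Of the 13 mitochondrially encoded transcripts, read as a sign of RNA quality, 5 were higher and 0 lower, with ND1 at 4986 against 3925 FPKM (log2 0.34 ± 0.07); 3 were higher without medium-dose replicate 1 or without orlistat replicate 3, and under quantile normalization 2 were higher and 1 lower. Their share of reads and the authors' scale factor per library (1.014 ± 0.014 times the recovered total at the medium dose, 1.036 ± 0.012 with orlistat, mean ± SD, n = 3) moved with the groups, and their part in the result was not tested. Many ribosomal protein genes have near-identical copies, so their single values are uncertain.

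The early response genes, read for handling of the tissue, showed no single direction, 6 of 17 higher and 7 lower. Zfp36, an RNA-destabilizing factor, fell from 53.3 to 34.6 FPKM (log2 -0.61 ± 0.04), while Junb, a subunit of the AP-1 factor, rose from 34.1 to 47.9 FPKM (0.48 ± 0.03) and Klf10 rose from 3.62 to 6.41 FPKM (0.69 ± 0.08). Their summed level was 281.1 to 289.7 FPKM at the medium dose and 278.5 to 290.2 with orlistat, so these ranges overlapped.

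Macrophage markers were lower at the medium dose in nearly the whole list: 11 of 12 fell, none rose, and the median was -0.34. The count of lower members was 11 under each of the 14 other settings tried. Cd5l, a protein secreted by Kupffer cells, had 16, 15.4 and 15.2 FPKM at the medium dose and 26.8, 29.4 and 26.8 with orlistat. Vsig4, a complement receptor of Kupffer cells, had 9.66, 8.41 and 10.3 FPKM against 16.3, 16.6 and 16.3. Neither gene overlapped, with log2 differences of -0.74 ± 0.06 for Vsig4 and -0.79 ± 0.04 for Cd5l (adjusted p = 2.28e-07 and 2.38e-09). Cd163, the hemoglobin scavenger receptor, had 3.45, 3.22 and 3.39 FPKM against 5.99, 5.73 and 5.65 (log2 -0.64 ± 0.04), and the bacterial scavenger receptor Marco 5.09, 6.56 and 6.26 against 9.83, 8.57 and 8.45 (-0.52 ± 0.09). Clec4f, the lectin that defines rat Kupffer cells most narrowly, fell by less, from 70.3 to 55.7 FPKM (-0.33 ± 0.04), as did C1qa (-0.16 ± 0.04). Lysozyme, Lyz2, had 22.7 against 21.7 FPKM and did not pass. The summed level was 282.7 to 293 FPKM at the medium dose, 353.3 to 373 with orlistat, 337.2 to 348.9 in the obese control, 426.8 to 437.6 at the low dose and 291.3 to 296.6 at the high dose. The normal control was lowest, at 205.6 to 208.5 FPKM. Against the high dose 0 of the 12 were higher or lower by limma (adjusted p), and against the low dose 11 were lower.

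Markers of other cell types followed. Of 12 endothelial markers 5 were lower and 1 higher, with Kdr at 11.4 against 12.7 FPKM (log2 -0.14 ± 0.04), Cdh5 at 6.54 against 7.72 (-0.21 ± 0.06) and Eng at 24.5 against 27.6 (-0.17 ± 0.04); the sums were 133.6 to 140 and 145 to 147.2 FPKM, and with the 6 libraries fitted alone 3 were lower, Cdh5 and Eng having lost their calls. Cdh5 also did not pass without medium-dose replicate 1 or 3 (adjusted p = 0.054 to 0.0574), and the higher count was 0 without medium-dose replicate 2 or orlistat replicate 2. Against the high dose 10 of the 12 were lower. Of 20 stellate cell and fibrosis genes 8 were lower and 1 higher (5 lower with the 6 libraries alone, 0 higher without medium-dose replicate 3 or orlistat replicate 1). Lrat, the retinol-storing enzyme of stellate cells, fell from 6.57 to 3.73 FPKM (-0.68 ± 0.05) and the collagen Col3a1 from 41.4 to 31 FPKM (-0.41 ± 0.03). The neutrophil genes S100a8 (2.8 to 4.36 FPKM) and S100a9 (3.76 to 6.3 FPKM) were higher. The other listed neutrophil genes in the table, Mpo, Elane, Cxcr2, Csf3r and Camp, were below 1 FPKM in all 6 libraries. The sums were 11.25 to 11.73 against 6.027 to 9.304 FPKM. Values of S100a8 overlapped between the groups, and it did not pass with the 6 libraries alone, without the filter, or without medium-dose replicate 1, orlistat replicate 1 or orlistat replicate 3. Of 7 lymphocyte genes 2 were lower, among them Cd4 (8.25 to 5.91 FPKM, -0.41 ± 0.09), and 1 higher, Cd79b (0.825 to 1.44 FPKM, 0.42 ± 0.14), a call lost without any 1 of the 6 libraries (adjusted p = 0.0506 to 0.102). The lower count was 1 without medium-dose replicate 2, orlistat replicate 1 or orlistat replicate 3. Of 7 red cell genes 1 was lower, and 0 with the 6 libraries alone or without medium-dose replicate 1, medium-dose replicate 3 or orlistat replicate 1. The fat cell genes Plin1, Lep and Retn and the pancreatic genes Prss1 and Pnlip were at 0 in all 6 libraries. Of 15 hepatocyte markers 7 were higher and 3 lower (4 higher under quantile normalization), among them Foxa2 higher (7.62 to 14.4 FPKM, 0.84 ± 0.05) and Hnf4a lower (-0.18 ± 0.02).

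**Figure D5:**
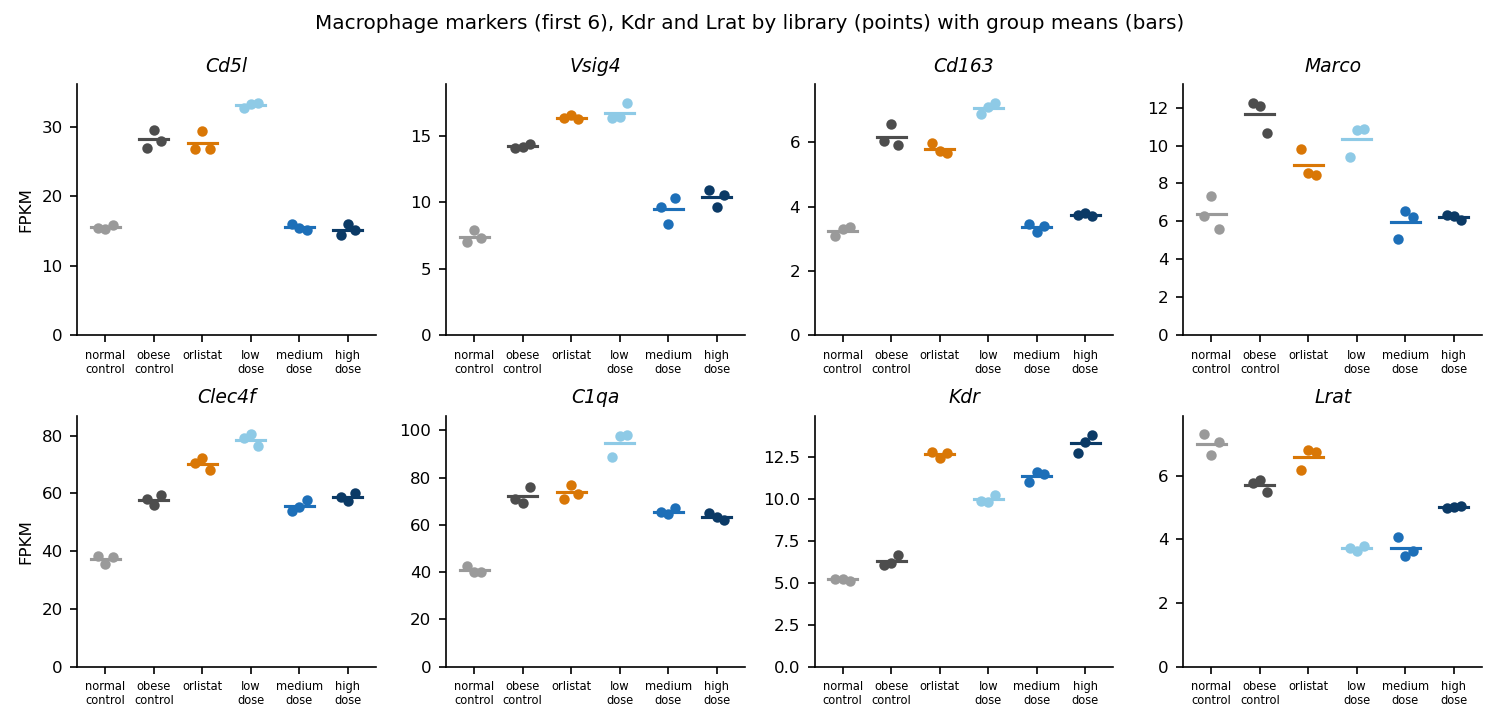
Points are the FPKM of single libraries and bars the group means (n = 3) for 6 macrophage markers, the endothelial gene Kdr and the stellate cell gene Lrat. For the macrophage markers the medium and high doses lie together below orlistat and the low dose, as with Cd5l at 15.5 and 15.2 against 27.6 and 33.1 FPKM on average.

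Whether a difference from orlistat had another size at the other doses was tested by setting the medium dose against them directly in the same fit. Against the high dose 2430 genes (20.3%) passed, 1195 (10%) higher and 1235 (10.3%) lower, and on the TPM scale 634 and 2587. Against the low dose 2751 (23.0%) passed, 1288 (10.8%) higher and 1463 (12.2%) lower, and on the TPM scale 1807 and 953. Pck1 was lower at the medium dose than at the high dose (-0.45) and the low dose (-0.49), and Scd was higher than at both (0.67 and 1.31). Insig1 was lower than at both (-0.73 and -1.09). For these genes the high and low doses differed from orlistat in the same direction as the medium dose, each past the limma threshold. The log2 differences from orlistat at the high and low dose were 1.02 and 0.38 for Scd, -1.02 and -0.66 for Insig1, and -0.19 and -0.16 for Pck1. Cyp7a1 and Cyp7b1 had log2 differences from the high dose of -0.08 ± 0.03 and -0.04 ± 0.09 (± SE) that did not pass. Ribosomal protein genes, higher than with orlistat, were lower than at the low dose for 20 of 24, and mitochondrially encoded transcripts were higher than at the high dose for 13 of 13.

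The untreated obese liver places both groups side by side. Scd differed from the obese control by 0.16 at the medium dose and -1.53 with orlistat, Angptl8 by 0.32 and -1.22, Insig1 by -1.09 and 0.67, Cyp7a1 by 1.10 and 1.75, and Cd5l by -0.82 and -0.03 on the log2 scale. The pairs share the obese control libraries and are given as values alone. For Scd and Angptl8 orlistat lay far from the obese control and the medium dose near it, for Cd5l the reverse held, and for Insig1 the 2 groups lay on opposite sides.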

How the data were processed

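Rat liver RNA was sequenced as 18 libraries, per the labels' protocols from 1 µg of RNA with a NEBNext Ultra kit. The deposited table gives FPKM values per gene that the authors computed. The submitters' processing notes name CASAVA 1.7, Bowtie 0.12.2 and mm8, a mouse build; no rat build, annotation or counting tool was named in the sources used here. FPKM times gene length gave whole reads within 0.001 read, which set the depths.

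Values were tested as log2(FPKM + 1) with limma 3.58.1 in R 4.3.3 (6 groups in 1 fit, trended variance, two-sided, Benjamini-Hochberg adjustment over 11945 genes, threshold 0.05), tested on simulated data; no count model was the main test because the unit is FPKM. Differences are on that scale and understate low genes. With 3 libraries a group and the reads given in the report, small differences of low genes were not detectable.

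Members and gene lists were chosen with earlier results of these data known. Named genes were the 10 largest log2 and 5 largest FPKM differences a direction and up to 4 list members by smallest p; 56 of 154 were added for their role after their values were seen. Pseudocount, filter, groups in the fit, TPM, quantile, voom, replicate block and left-out libraries were varied, and a median-of-ratios scaling was added after seeing the data. Some genes are not reported here.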

Additional observations from a re-analysis of the deposited data

Results flagged for a closer look

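Only genes named in the report were screened here. Those below were singled out because the medium dose and another dose lay on opposite sides of orlistat, each past the limma threshold, and because the direct difference between the doses passed too (adjusted p). Values are log2 differences, medium dose minus the other dose, with 3 libraries each.

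Against the low dose the named genes below orlistat at the medium dose and above it at the low dose were Akr1d1 (-0.50), Asl (-0.40), C1qa (-0.52), Cd163 (-0.89), Cd5l (-1.05), Clec4f (-0.49), Fga (-0.36), Fgb (-0.26), Fgg (-0.28), G6pc (-0.79), Hmox1 (-0.72), Igfbp1 (-1.62), Prlr (-2.00) and Ugt2b37 (-0.77). They include the prolactin receptor, genes of glucose release and insulin response, fibrinogen chains and macrophage markers. The named genes above orlistat at the medium dose and below it at the low dose were Ccnd1 (0.70), Elovl5 (0.52), Fasn (0.54), Per3 (0.37), Tef (0.33) and Thrsp (0.63), among them the lipogenic factor Thrsp, fatty acid synthase and cyclin D1. The medium-dose calls of Per3 and Tef against orlistat were lost on the TPM scale, with the 6 libraries alone and without single libraries. Those of Fgb and Fgg were lost under quantile normalization.

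Against the high dose the named genes above orlistat at the medium dose and below it at the high dose were COX1 (0.51), Fasn (0.61), Junb (0.70) and ND1 (0.66). The reverse held for Fga (-0.20) and Rxra (-0.26). The medium-dose call of Rxra against orlistat was lost without the filter, with the 6 libraries alone and without single libraries, and that of COX1 under quantile normalization. COX1 and ND1 are mitochondrially encoded, and their summed level was 58510 to 67320 FPKM at the medium dose and 42460 to 43650 at the high dose for the 13 such transcripts. The part of RNA quality in the result was not tested.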

How the results depend on the processing

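Over 14 other settings, 2094 values for the 155 loci of the 154 named genes kept direction and side of the threshold, 67 kept direction but lost and 4 gained it, and 5 changed sign; 18 loci lost a call in at least 1 setting. On the TPM scale 959 genes were higher and 2617 lower than with orlistat, 634 and 2587 against the high dose, and 953 lower than at the low dose; the median of all genes was -0.06 in the first, against 0.00 on the deposited scale. With the medium-dose and orlistat libraries fitted alone 1008 genes were lower. The cause of these shifts was not tested. Leaving out 1 library of the groups compared at a time gave 2649 to 2935 called genes, 1373 to 1464 higher and 1276 to 1471 lower; against the high dose 1924 to 2098, 965 to 1037 and 959 to 1073; against the low dose 2248 to 2613, 1026 to 1203 and 1221 to 1410. Leaving out the high- and low-dose libraries was chosen after seeing the data. With the replicate number as a block 3093 genes were called, 1605 higher and 1488 lower, 2318 against the high dose and 2682 against the low dose. Same-numbered libraries correlated at -0.06, -0.09 and -0.03 in their deviations from the group mean over all genes. No pairing by number was seen over all genes, and pairing confined to few genes was not tested. The block moved no count over all genes by over 1.5 times. Sign changes were Apoe (-0.00) and COX1 (-0.00) under quantile normalization, Hp (-0.022 on the TPM scale, -0.13 under quantile normalization) and Lyz2 (-0.0133 on the TPM scale), the last never past the threshold; for these the cause was not tested. The added median-of-ratios scaling gave 1612 higher and 1611 lower. Beside the list counts given in the report, members lower became 4 of fatty acid synthesis (2; TPM, voom, without orlistat replicate 2), 4 of cholesterol (7) and 1 of interferon response (3) with the 6 libraries alone, and members higher 3 of cholesterol (6) under quantile normalization. Depth limits low genes such as Tff3 and Arntl.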
